A study of Mus musculus with 14 samples.

Results

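Thbs2, Tenm4, Mmp2 and Cavin2 are genes whose response to a pulse of the transcription factor GLI1 was read as larger after the pulse had ended than during it. They were taken from comparisons of GLI1-induced with control cells because their difference was larger at day 10 (D10) than at day 5 (D5) of differentiation, or was measured at D10 only. The rule names no numerical threshold. Their relatives Thbs1, Tenm1, Tenm2 and Tenm3 were added by family and not by their values. The 8 genes are 8 of 16060 genes in either of the authors' deposited tables. All 8 are in the D10 table and 6 are in both, while Tenm1 and Cavin2 are in the D10 table only. The D5 and D10 values of the 4 genes chosen by effect are therefore given as a description, with calls quoted only to check the label, and tests are read for the 4 relatives alone.

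Libraries of polyadenylated RNA came from the GLI1-FTA line of mouse embryonic stem cells, in the A2Lox.cre background, differentiated into neural cells in culture. Induced cells received 500 ng/ml doxycycline for 48 h, from day 3 to day 5, were washed and were grown on to the day of harvest. At D5, labelled neural progenitor cells, there were 4 GLI1-induced and 4 untreated control samples. The D10 cultures, labelled immature neurons and harvested 5 days after the wash, comprised 3 induced and 3 control samples. All 14 libraries come from the same transgenic line, and the controls got no doxycycline, so the drug and GLI1 cannot be told apart. Hedgehog signalling ends in the GLI transcription factors, and the question is which genes differ 5 days after the doxycycline was removed. On the log2 scale the difference in Gli1 transcript was 4.79 at D5 (adjusted p = 1.12e-81) and 0.57 at D10 (adjusted p = 0.780), per the authors' deposited tables. Values per gene cannot tell the transgene from the cells' own Gli1.

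The authors' deposited tables give a comparison per gene and no value per library. Values by sample, their spread and the overlap of the groups therefore cannot be given, and the depth per sample is unknown. The labels do not say whether replicates were separate cultures, so p-values measure only the spread between these samples, which may be technical. Markers of the labelled cells were present, with an average log2 CPM (read counts scaled to library size) at D5 of 7.38 for the progenitor factor Sox2 and at D10 of 9.11 for the neuron gene Dcx in the authors' deposited tables. Of 15108 genes at D5, the authors' deposited table has 354 (2.34%) higher and 317 (2.10%) lower at an adjusted p under 0.05. For D10 the authors' deposited table has 13 of 15744 (0.0826%) higher and 0 lower, against 241 (1.53%) in either direction at an unadjusted p under 0.05.

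Thrombospondins, teneurins, the protease MMP2 and cavins work at the cell surface and in the matrix around it. Thrombospondins are secreted glycoproteins that tune how cells attach to matrix and respond to growth factors, and in the brain those from glia promote the formation of synapses. Teneurins are very large transmembrane proteins that bind latrophilins on partner cells and guide the matching of axons to targets. MMP2 (gelatinase A) cuts basement membrane collagen, and thrombospondin 2 is known to bind MMP2 and hand it to the scavenger receptor LRP1 for uptake. Cavin2 coats caveolae, small pits of the plasma membrane, together with caveolins and other cavins.

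The label "higher only after washout" held for part of the set by the authors' threshold. In the authors' deposited table for D10, Thbs2 and Cavin2 are among the 13 genes called higher, so 2 of the 8 genes were called where 0.0826% of all genes were. Since the rule used that comparison, nothing is read from this count. Mmp2 (adjusted p = 0.547) and Tenm4 (adjusted p = 1) did not pass at D10 in the authors' deposited table. With the authors' p-values rescaled within bins of expression, both passed, as did 119 (0.756%) of all genes, so these calls depend on the scaling. The rule used these values as well, so nothing is read from either call. In the authors' deposited table for D5, Tenm4 is called lower, while Thbs2 and Mmp2 are not called. The rule used the D5 values too, so these calls only describe the label. Cavin2 is not in the D5 table, so for it "only" cannot be judged.

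Start-site sequence is shown for the genes chosen by effect that have an entry in the RefSeq promoter table (build GRCm38.p6), because the induced protein binds DNA. Each window runs from 250 bases before to 50 after the annotated start, and 6 of the 8 genes matched, with 7 windows. Capitals mark a match to CCACCCA, the core of the GLI-binding consensus GACCACCCA, on either strand.
Thbs2, chr17:14694213-14694512, minus strand: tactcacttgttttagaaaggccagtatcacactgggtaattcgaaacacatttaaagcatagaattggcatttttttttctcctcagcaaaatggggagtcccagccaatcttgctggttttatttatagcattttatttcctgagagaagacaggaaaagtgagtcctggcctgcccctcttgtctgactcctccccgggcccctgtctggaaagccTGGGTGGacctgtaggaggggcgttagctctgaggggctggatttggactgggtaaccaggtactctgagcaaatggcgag
Tenm4, chr7:96170994-96171293, plus strand: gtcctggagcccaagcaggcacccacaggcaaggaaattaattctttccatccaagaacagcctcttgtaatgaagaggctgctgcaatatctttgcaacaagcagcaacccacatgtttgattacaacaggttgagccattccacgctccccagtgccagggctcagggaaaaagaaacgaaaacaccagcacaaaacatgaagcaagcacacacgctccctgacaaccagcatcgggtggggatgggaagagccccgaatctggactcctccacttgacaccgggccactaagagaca
Cavin2, chr1:51288876-51289175, plus strand: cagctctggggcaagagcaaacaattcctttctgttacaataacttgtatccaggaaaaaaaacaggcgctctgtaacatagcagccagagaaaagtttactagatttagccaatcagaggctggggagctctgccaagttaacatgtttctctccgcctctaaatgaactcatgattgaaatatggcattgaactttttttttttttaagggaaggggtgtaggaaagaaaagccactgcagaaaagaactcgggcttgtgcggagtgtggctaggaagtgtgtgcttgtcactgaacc

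The Thbs2 window held 1 match to the core, read on the opposite strand as TGGGTGG, from base -31 to base -25 with the first transcribed base as 0. The same core was found in 9.49% of the 14526 windows of genes in the D10 table, so a match of this kind is common. The whole consensus GACCACCCA, which contains the core, was in none of the 7 windows of the 8 genes and in 0.193% of those 14526 windows. The first Tenm4 window, a further one at chr7:96211421-96211720 on the plus strand and the Cavin2 window held neither the core nor TGANTCA (AP-1) or GGGCGG (a GC box), each searched on both strands, nor TATAAA on the gene's strand. These letters were found in 4.94%, 61.4% and 4.47% of the 14526 windows. The GC content was 48.3% for Thbs2, 52% for the Tenm4 window shown and 43.3% for Cavin2, with 4, 6 and 4 CpG dinucleotides. The median over all 32851 windows was 52.7% and 7. The Tenm1 window was the poorest in these letters among the 7, with a GC content of 27% and 0 CpG, and it held TATAAA 3 times.

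Thbs2 (Entrez 21826), a matrix-associated inhibitor of blood vessel growth, had a value below 0 at D5 and above 0 at D10. In the authors' deposited table its log2 fold change was -0.42 at D5, with a standard error (SE) of 0.26 that the p-value implies, and did not pass (adjusted p = 0.689). At D10 it was 1.04 in the authors' deposited table (implied SE 0.20), which is 2.05-fold higher in induced cells. A mean level for each group was derived here from the average log2 CPM and the fold change, taking the average to weight both groups equally. By this estimate Thbs2 stood at 2.71 CPM in control and 2.02 CPM in induced cells at D5, and at 4.34 and 8.91 CPM at D10. The control level was thus 1.60-fold higher at D10 than at D5, and 19.2% of the 14792 genes in both tables rose by at least as much. Thbs2 is a weakly expressed gene here, ranking 12995 of 15108 by level at D5 and 11674 of 15744 at D10.

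Thbs1 (Entrez 21825), the close relative that also activates latent TGF-beta, fell at D5 and was close to 0 at D10. The authors' deposited table for D5 gives it as 1.25-fold lower in induced cells, a log2 fold change of -0.33 (implied SE 0.10, adjusted p = 0.0330). For D10 the authors' deposited table has -0.02, which did not pass (adjusted p = 1, 95% interval from the implied SE -0.30 to 0.26). Its derived level was 259 CPM in control and 207 CPM in induced cells at D5, and 234 and 231 CPM at D10. The change between days, 0.31 (SE 0.18, interval -0.04 to 0.65), did not pass a test computed here from the authors' p-values and adjusted over the 14792 shared genes (adjusted p = 1, normal approximation). With the authors' p-values rescaled it did (adjusted p = 0.0199), so this call depends on their scaling. Across the shared genes the test of days called 183 (1.24%), and 361 (2.44%) after rescaling.

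No other thrombospondin and no receptor passed at D10. Thbs3, a further secreted member, rose by 0.37 on the log2 scale at D5 (adjusted p = 0.00476) and had 0.31 at D10 (adjusted p = 1), per the authors' deposited tables. Comp, the cartilage thrombospondin, was measured at D10 only, and the authors' deposited table gives it -0.37 (adjusted p = 1). Of 17 receptors and binding partners, 1 rose and 1 fell at D5, and 0 of 17 passed at D10 in the authors' deposited tables. Among all genes 2.34% rose and 2.10% fell at D5, and 0.0826% passed at D10. The riser was Vldlr, a lipoprotein receptor that binds thrombospondin 1, at 0.86, and the other was the proteoglycan gene Sdc4 at -0.34 in the authors' deposited table for D5. Their medians were 0.04 at D5 and -0.01 at D10, where those of all genes were 0.0015 and 0.0027. The uptake receptor gene Lrp1 stood at 0.28 in the authors' deposited table for D5 and did not pass (adjusted p = 0.433).

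Matricellular genes other than thrombospondins changed at D5 in both directions. The authors' deposited table for D5 holds 11 of them, of which 2 rose and 4 fell, against 2.34% and 2.10% of all genes, and their median was -0.59. Smoc2, a calcium-binding matrix protein gene, rose by 3.40 and Sparcl1 by 1.26 on the log2 scale in the authors' deposited table for D5. On the same day the authors' deposited table shows that Sparc fell by 0.66, Ccn2 by 0.63, Ccn1 by 0.62 and Smoc1 by 0.39. For D10 the authors' deposited table calls 0 of 14, against 0.0826% of all genes, at a median of -0.02.

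**Figure D1:**
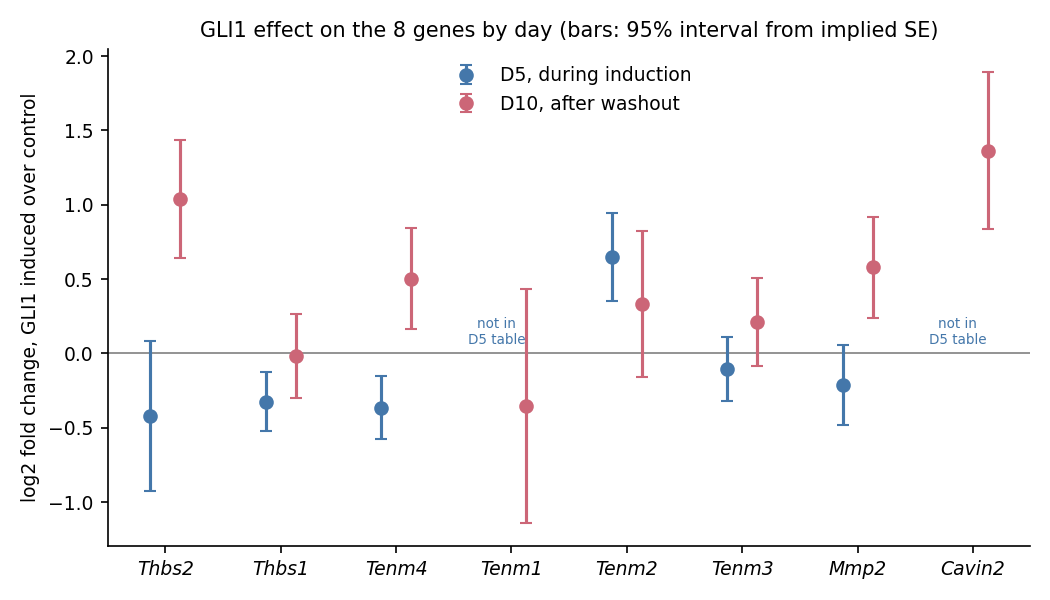
Log2 fold change of GLI1-induced over control cells for the 8 genes (vertical axis) at D5 in blue and D10 in red, with bars for the 95% interval from the implied SE. Thbs2, Tenm4 and Mmp2 lie below 0 at D5 and above 0 at D10, Tenm2 is above 0 on both days, and Tenm1 and Cavin2 have a D10 value only.

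Tenm4 was the teneurin chosen by effect. Tenm4 (Entrez 23966), a teneurin needed for early embryonic patterning and for myelination, had a log2 fold change of -0.36 at D5 (implied SE 0.11) and 0.50 at D10 (implied SE 0.17) in the authors' deposited tables. By the authors' threshold Tenm4 was called lower at D5 and was not called at D10 in the authors' deposited tables. As a ratio of induced to control cells the D10 value in the authors' deposited table is 1.42.

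The level of Tenm4 itself, which the choice of genes did not use, was far lower at D10. Its derived level was 147 CPM in control and 114 CPM in induced cells at D5, and 14.2 and 20.1 CPM at D10. The control level fell 10.4-fold, by 3.37 on the log2 scale, and 9 of the 14792 shared genes (0.0608%), Tenm4 included, fell by as much. The median shared gene moved by 0.013 between the days. The tables of the days were normalized separately, so this comparison of levels has no replicate error and no test. The D10 fold change is thus a difference at a level several times under that of D5.

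Tenm2 (Entrez 23964) rose in induced cells at D5, by 1.57-fold per the authors' deposited table, a log2 fold change of 0.65 (implied SE 0.15, adjusted p = 0.000972). For D10 the authors' deposited table has 0.33, which did not pass (adjusted p = 1, interval -0.16 to 0.82). Derived levels of Tenm2 were 12.4 and 19.5 CPM in control and induced cells at D5, and 22.5 and 28.3 CPM at D10. Its control level was 1.81-fold higher at D10, the opposite direction to Tenm4.

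Tenm3 (Entrez 23965), known for wiring visual and hippocampal circuits, passed on neither day. In the authors' deposited tables it stood at -0.10 at D5 (interval -0.32 to 0.11) and 0.21 at D10 (interval -0.08 to 0.51), each with an adjusted p of 1. Its derived control level went from 180 to 82.9 CPM, a 2.17-fold fall. Tenm1 (Entrez 23963), which is X-linked, was low at D10, with a derived 1.59 CPM in control and 1.24 CPM in induced cells. Its D10 log2 fold change of -0.35 in the authors' deposited table did not pass (adjusted p = 1), and its interval of -1.14 to 0.43 is the widest of the 8 genes.

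Tests are read for the 4 relatives, since the rule took them by family. The members were chosen with earlier results of these data known, so this is not a blind test. At D5, 2 of the 3 measured passed in the authors' deposited table, Tenm2 higher and Thbs1 lower, against 4.44% of all genes. At D10, 0 of 4 passed in the authors' deposited table, 0 also at an unadjusted p under 0.05 and 0 with rescaled p-values. The difference between days was 0.32 (interval -0.05 to 0.68) for Tenm3 and -0.32 (interval -0.89 to 0.25) for Tenm2, each with an adjusted p of 1 by the test of days.

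**Figure D2:**
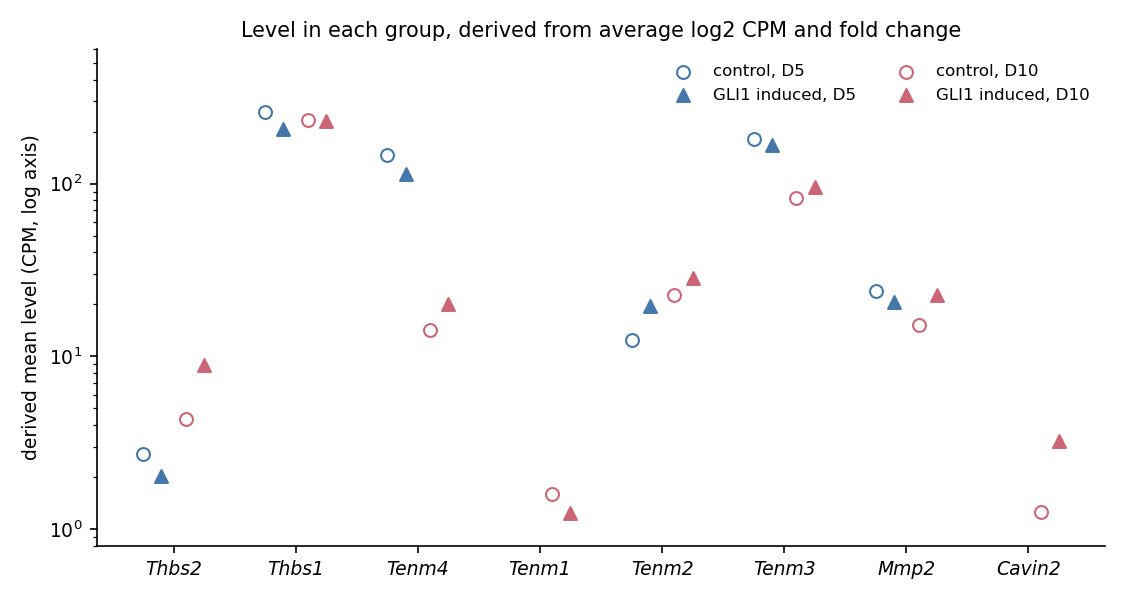
Derived mean level in CPM on a log axis for control (open circles) and GLI1-induced cells (triangles) at D5 in blue and D10 in red, with no error bars because no values per library were used. Tenm4 drops from 147 to 14.2 CPM in controls, while Thbs1 stays between 207 and 259 CPM in the 4 groups.

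Of genes listed as teneurin partners, direct or through FLRT proteins, 2 rose and 2 fell among 11 measured in the authors' deposited D5 table. On that day 4.44% of all genes were called. At D10 0 of 12 passed in the authors' deposited table, where 0.0826% of all genes did. The netrin receptor genes Unc5c and Unc5a, whose products also bind FLRT proteins, rose by 1.33 (adjusted p = 6.21e-07) and 1.03 (adjusted p = 2.15e-06) on the log2 scale in the authors' deposited table for D5. Flrt3 and Flrt2, adhesion proteins that join teneurin and latrophilin complexes, fell by 0.54 (adjusted p = 0.00918) and 0.53 (adjusted p = 0.0492), again from the authors' deposited table. By the test of days on the authors' p-values the effect differed for Unc5c (adjusted p = 6.93e-06), while Unc5a (adjusted p = 0.217), Flrt3 (adjusted p = 0.409) and Flrt2 (adjusted p = 0.590) did not pass. The latrophilin genes Adgrl1, Adgrl2 and Adgrl3, whose products bind teneurins directly, stood between 0.08 and 0.11 at D10 and between -0.23 and 0.08 at D5 in the authors' deposited tables, with no call.

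Mmp2 (Entrez 17390) had the same signs as Thbs2, with -0.21 at D5 (implied SE 0.14) and 0.58 at D10 (implied SE 0.17) on the log2 scale in the authors' deposited tables. As a ratio of induced to control cells the D10 value is 1.49. The derived level was 23.95 CPM in control and 20.64 CPM in induced cells at D5, and 15.2 and 22.7 CPM at D10. By this estimate the D10 control was the lowest of the 4 groups, and the induced cells at D10 lay between the 2 groups of D5. The control level was 1.58-fold lower at D10 than at D5, and 14.5% of shared genes fell by at least as much.

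Apart from Thbs2, the listed genes that act with MMP2 did not pass at D10, where only 0.0826% of all genes did. Mmp14, the membrane protease that activates pro-MMP2, stood at -0.06, and Timp2, the inhibitor that bridges the pair, at -0.09 in the authors' deposited table for D10. Of the other metalloproteinases, 0 of 8 passed at D10 in the authors' deposited table, all between -0.07 and 0.15. At D5, 1 of 9 rose in the authors' deposited table, where 2.34% of all genes did, namely Mmp17 at 0.79 (adjusted p = 2.58e-06). Of 4 measured inhibitors, Timp3, a matrix-bound inhibitor, rose by 1.12 at D5 (adjusted p = 2.4e-18) and stood at 0.0024 at D10 in the authors' deposited tables. Among the Adamts proteases, which carry thrombospondin repeats, 3 of 17 rose and 1 fell at D5 in the authors' deposited table. On that day 2.34% of all genes rose and 2.10% fell. Adamts12 rose by 1.24, Adamts3 by 0.92 and Adamts20 by 0.60, and Adamts9 fell by 0.83, on the log2 scale of the authors' deposited table. At D10 0 of 18 Adamts genes passed in the authors' deposited table, with values from -0.28 to 0.99.

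Cavin2 (Entrez 20324) had the largest D10 difference of the 8 genes, which the authors' deposited table gives as a log2 fold change of 1.36 (implied SE 0.27), or 2.58-fold higher in induced cells. It ranked 13708 of 15744 by level at D10. The derived levels were 1.25 CPM in control and 3.22 CPM in induced cells, so the difference rests on about 2 CPM. Cavin2 is one of 952 genes in the D10 table that the D5 table does not hold. These 952 genes had a median average log2 CPM of 0.24 at D10, against 1.16 for Cavin2 in the authors' deposited table.

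No other caveola gene passed on either day. The counts were 0 of 7 at D5 and 0 of 8 at D10, with medians of -0.10 and 0.03. Of all genes 4.44% and 0.0826% passed on these days, so little is read from the counts. Cavin1, which is needed to form caveolae, stood at 0.20 and Cav1, the main structural caveolin, at 0.16 in the D10 values of the authors' deposited table. The muscle member Cavin4 missed the threshold at 0.84 (adjusted p = 1), and the authors' deposited table gives it an average log2 CPM of 0.0076.

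Over all 8 lists of relatives and partners, 11 genes rose and 8 fell of 77 measured at D5, which is 24.7% called against 4.44% of all genes in the authors' deposited table. At D10 it was 0 of 83 in the authors' deposited table, with 9 (10.8%) at an unadjusted p under 0.05 against 1.53% of all genes. After rescaling the p-values 5 of the 83 passed at D10, against 0.756% of all genes, namely Thbs3, Fbln5, Adamts12 and Adamts16 on the higher side and Smoc1 on the lower. The median log2 fold change of the lists together was -0.04 at D5 and -0.01 at D10. The lists were chosen with earlier results of these data known, so these shares only describe them and no enrichment is read.

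**Figure D3:**
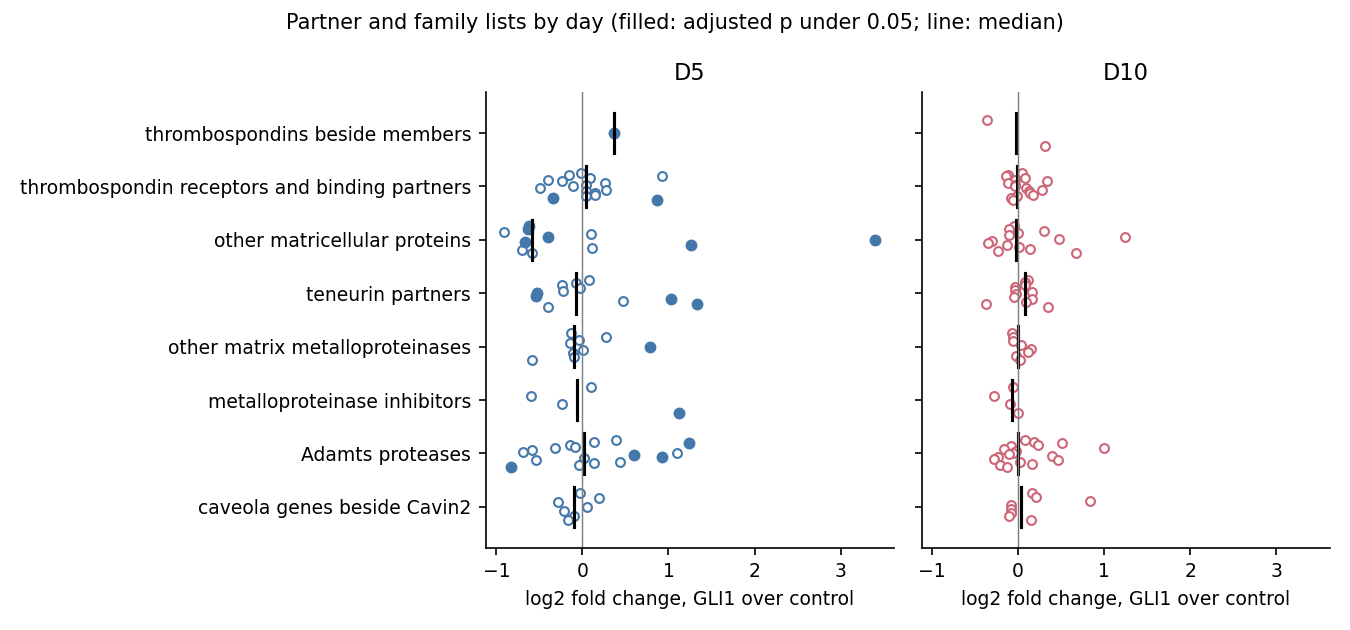
Log2 fold change of each measured gene in the 8 lists of relatives and partners at D5 (left, blue) and D10 (right, red), with filled points for an adjusted p under 0.05 and a line at each list's median. The D5 panel holds 19 filled points and the D10 panel 0, and the D10 values crowd around 0 apart from a few genes such as Fbln5 at 1.24.

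Likeness to the chosen genes was judged by the test of days together with a fold change further from 0 at D10 than at D5. Of the 183 genes whose effect differed between days, 56 had a higher value at D10 than at D5, and in 52 of these a D5 value below 0 was followed by one of smaller size at D10. Outside the chosen genes, Sulf1, an extracellular enzyme that trims heparan sulfate, was the one gene that met both conditions. It stood at 0.26 at D5 and 0.86 at D10 in the authors' deposited tables, a difference of 0.60 (SE 0.17, adjusted p = 0.0356 by the test of days on the authors' p-values). The same difference was 1.46 (SE 0.33) for Thbs2, 0.87 (SE 0.20) for Tenm4 and 0.79 (SE 0.22) for Mmp2, values that the choice of these genes used. Thbs2, Tenm4 and Mmp2 changed sign, as did 21.2% of the shared genes in the same direction, and Sulf1 did not. Among the listed genes Adamts16 went from -0.32 to 0.99 and Adamts5 from -0.54 to 0.46 by the authors' values. Neither passed the test of days on the authors' p-values (adjusted p = 0.219 and 0.230). The D10 value of Adamts16 was larger than those of Mmp2 and Tenm4.

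Of the 13 genes called at D10, 6 were also called at D5, 3 were measured and not called at D5 and 4 are not in the D5 table. The 3 are Thbs2, Sulf1 and Igfbp3, a carrier of insulin-like growth factors, which stood at 0.23 at D5 and 0.92 at D10 in the authors' deposited tables. Cavin2, the neurokinin receptor gene Tacr1 at 1.19 and the glutamate transporter gene Slc17a8 at 1.17 in the authors' deposited table for D10 are among the 4.

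**Figure D4:**
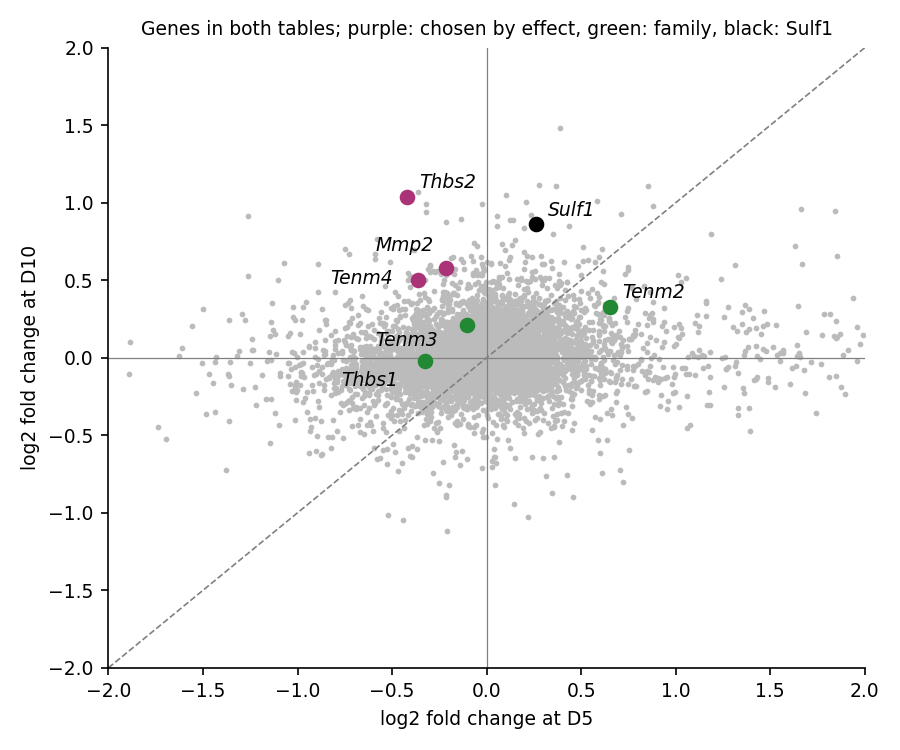
Log2 fold change at D5 (horizontal) against D10 (vertical) for the genes in both tables in grey, with the dashed line of equal change and 43 genes beyond the axes. Thbs2, Mmp2 and Tenm4 (purple) lie at the upper left, Thbs1 and Tenm3 (green) lie nearer the centre, Tenm2 (green) is higher on both days, and Sulf1 is in black.

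Levels can be compared between genes only per length of transcript. On the scale of average CPM per kilobase of annotated exon (GENCODE M21), Thbs1 was highest on both days, at 39.9 at D5 and 39.7 at D10. At D5 Tenm3 followed at 18.3, then Tenm4 at 9.28, Mmp2 at 7.24, Tenm2 at 1.61 and Thbs2 at 0.401. At D10 the order was Tenm3 at 9.40, Mmp2 at 6.15, Tenm2 at 2.56, Tenm4 at 1.22, Thbs2 at 1.12, Cavin2 at 0.731 and Tenm1 at 0.110. Tenm4 thus moved from above to below Mmp2 and Tenm2. Whether neighbours such as Tenm4 and Thbs2 at D10 differ cannot be judged without values per library.

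No measured gene next to the chosen 4 on the chromosome passed at D10. Only 0.0826% of all genes did, so little is read from this count. The nearest 2 measured genes on either side, 16 in all, had D10 log2 fold changes from -0.35 to 0.15 and adjusted p-values of 1 in the authors' deposited table. Smoc2, next to Thbs2, was the lowest of them at D10, and at D5 it had risen by 3.40 on the log2 scale (adjusted p = 2.16e-19) in the authors' deposited tables. The pair of neighbours thus had opposite signs on both days. Irx5 and Irx6, homeobox genes next to Mmp2, had D10 values of 0.15 and -0.12 in the authors' deposited table.

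Those markers of cell types that commonly express Thbs2, Mmp2 and Cavin2 which were measured at D10 did not differ by the authors' threshold. Only 0.0826% of all genes passed it. In bulk RNA, fewer cells of a type and less RNA per cell cannot be told apart. The authors' deposited table calls 0 of 10 measured fibroblast and mesenchyme markers at D10. Their median was -0.01, and their derived summed level was 1913 CPM in control and 1862 CPM in induced cells. Dcn of that list is not in the D10 table, and Fn1 had its highest average log2 CPM, at 10.5, so the sum leans on that gene. The endothelium list, with 0 of 6 measured markers called at D10 by the authors' deposited table, had a median of -0.08 and summed levels of 239 and 228 CPM, while Pecam1, Tie1, Emcn and Cldn5 are not in that table. Its sum leans on Flt1 and Tek, at an average log2 CPM of 7.05 and 6.16. Egfl7 stood at 4.56, Cdh5 at 1.71, Kdr at 0.51 and Esam at -0.22, so whether endothelial cells were there is not settled. All 6 measured mural and smooth muscle markers were above 0 at D10 and 0 passed per the authors' deposited table, at a median of 0.15 and summed levels of 645 and 684 CPM. Endoderm markers, 0 of 9 called, had a median of -0.11 in the authors' deposited table for D10 and summed levels of 1468 and 1410 CPM.

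Part of the floor plate markers were, like Thbs2 and Cavin2, called higher at D10. Per the authors' deposited table for D10, 6 of 11 rose, including Shh, Slit2 and Ntn1, where 0.0826% of all genes did. The other 5 did not pass. In the same authors' deposited table Corin stood at 0.30, Foxa1 at 0.25, Foxa2 at 0.04, Slit3 at 0.03 and Lmx1a at -0.43. The list's median was 0.80, and it had a derived summed level of 322 CPM in control and 533 CPM in induced cells. At D5 the authors' deposited table has 8 of 8 measured rising, against 2.34% of all genes, at a median of 1.39. Their summed levels were 302 and 605 CPM. On that day Thbs2, Tenm4 and Mmp2 had values below 0, of which only that of Tenm4 passed, and the rule used these values. The part of floor plate cells in the D10 differences was not tested. Neural progenitor markers, 0 of 10 called, and neuron markers, 0 of 10 called, had medians of 0.18 and 0.04 in the authors' deposited table for D10. All 10 progenitor markers were above 0 on that day, with summed levels of 1429 CPM in control and 1568 CPM in induced cells. For neuron markers 7 were above 0 and 3 below, with sums of 2315 and 2372 CPM. Neural crest and glia markers, 0 of 5 called, had a median of 0.08 in that authors' deposited table. For D5 the authors' deposited table has 2 higher and 1 lower of 8 fibroblast and mesenchyme markers, 1 lower of 5 endothelium markers and 0 called of 5 mural markers. Also at D5, the authors' deposited table has 1 higher and 2 lower of 8 endoderm markers and 4 lower of 10 neuron markers. It calls 0 of 10 progenitor and 0 of 3 neural crest and glia markers. Among all genes 2.34% were higher and 2.10% lower at D5.

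**Figure D5:**
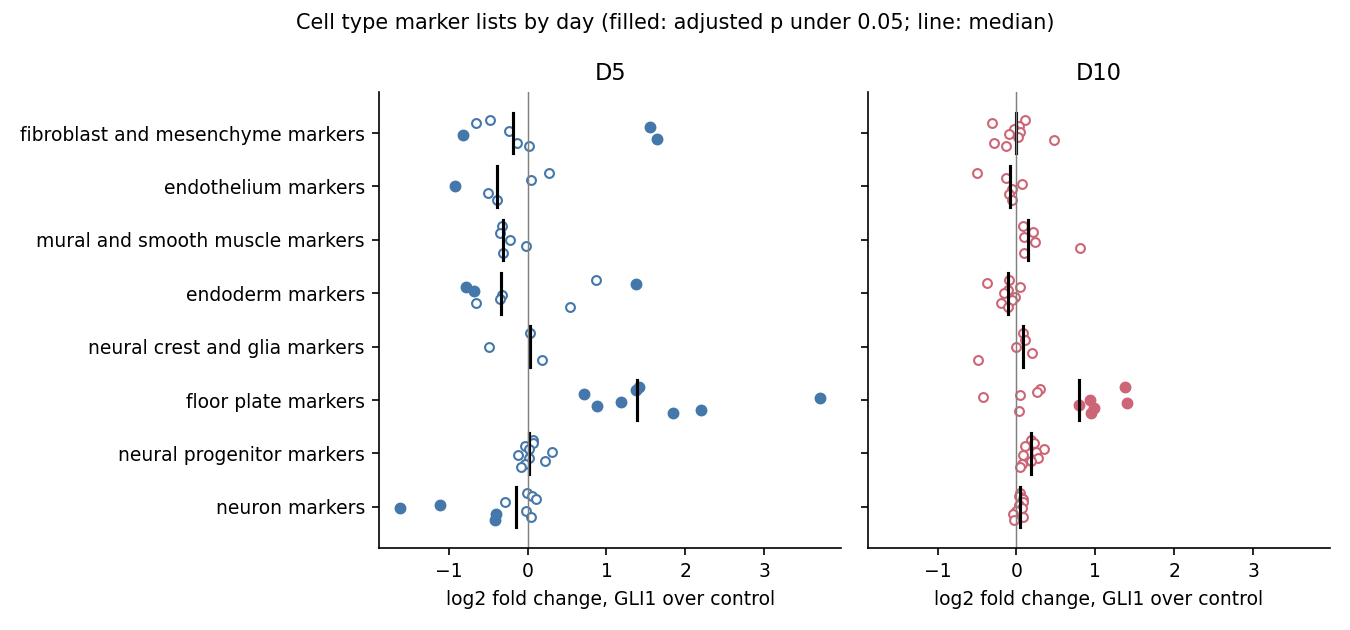
Log2 fold change of each measured marker in 8 cell type lists at D5 (left, blue) and D10 (right, red), with filled points for an adjusted p under 0.05 and a line at each list's median. Floor plate markers hold the only filled points at D10, 6 of 11, and lie to the right of 0 at D5 as well.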

How the data were processed

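Samples were grouped by their titles. Per the file headers, the authors deposited for each day a log2 fold change, an average log2 CPM, a p-value and an FDR, here called adjusted p, for each Entrez gene. For aligner, counting, test, low-count filter and build the sources used here give nothing, and depth is unknown. Base 2 was checked for the average log2 CPM deposited by the authors, since the sum of 2 to that power is 1001543 for D5 and 1001340 for D10. The fold change was taken to share it. Whether counting used strand is not given, so overlapping genes are uncertain.

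Symbols came from RefSeq (GRCm38.p6), which with the authors' selected tables named 14307 of 15108 and 14906 of 15744 identifiers. With Python 3.11.15 and scipy 1.17.1, a signed z was taken from each deposited p-value, and the implied SE is the absolute log2 fold change over the absolute z. It is no replicate SD. Days were compared as the difference over the root of summed squared SEs, with a normal reference and Benjamini-Hochberg adjustment. The procedure was tested on simulated data. Rescaling divided z in bins of about 500 genes by level so that its median size matched a normal. The members and lists were chosen with earlier results of these data known. Named were the 8 members, called genes of each partner list (at most 6), genes most like the members and their chromosome neighbours; others were named for their role or after their values were seen. Alternatives were other thresholds, Holm's adjustment, a minimum average log2 CPM of 1 and the rescaling.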

Additional observations from a re-analysis of the deposited data

Results flagged for a closer look

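For 6 of the 76 partner genes in both tables (7.89%) the GLI1 effect differed between the days by the test of the difference adjusted over 14792 shared genes, which called 1.24% of all of them, in each case toward 0 or below it at D10. Smoc2 had the largest difference, with D10 minus D5 of -3.75 (adjusted p = 8.09e-14), going from 3.40 to -0.35 in the authors' deposited tables. By the same test on the authors' p-values, Unc5c differed by -1.70 (adjusted p = 6.93e-06) and Sparcl1 by -1.26 (adjusted p = 1.9e-05). From the authors' p-values, Adamts3 differed by -1.16 (adjusted p = 0.0137), Timp3 by -1.12 (adjusted p = 4.35e-07) and Vldlr by -0.92 (adjusted p = 3.66e-06). As the lists were chosen with earlier results of these data known, no enrichment is read from the share.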

How the results depend on the processing

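The count of relatives called at D5 was 2, and it was 1 at an adjusted p under 0.01 and 0 with Holm's adjustment. No relative was called at D10 under the 5 alternatives run, of which the minimum level gave Tenm1 no value. The difference between days was called for 0 relatives, and for 1, Thbs1, with rescaled z. Partner genes called at D5 numbered 19, and 10 with Holm's adjustment, while at D10 they numbered 0, and 5 with rescaled z. Of these changes, the lower counts under a stricter threshold or Holm's adjustment follow from their construction. Rescaling likewise raises counts by construction where z is smaller than that of a normal. Over all genes the median size of z was 0.618 at D5 and 0.407 at D10, both under that of a normal. The remaining 20 alternative counts stayed within 1.5 times the main value. Many of these are 0 beside a main value of 0, where a ratio has no meaning and a stricter setting could give nothing else. No paired analysis was possible because the deposited tables carry no values per library, and for the same reason no replicate could be left out. The depth is unknown, so how it limits the lowest genes, Cavin2, Tenm1 and Thbs2, cannot be given.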
